A study of Mus musculus with 9 samples.

Results

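The circadian clock genes Arntl, Clock, Per2, Per3, Cry1, Cry2, Nr1d1, Nr1d2, Dbp and Tef were followed through Omni-ATAC-seq peak lists of brain endothelial cells (ECs), the cells that line cerebral vessels. Omni-ATAC-seq maps open chromatin, since the Tn5 transposase inserts sequencing adapters where DNA is accessible. Every peak whose annotated gene name was one of these 10 genes was taken, which gave 190 of 253457 peaks over 9 libraries. The mouse line was on the C57BL/6J background and both sexes were used. Cre under the VE-Cadherin (Cdh5) promoter, which is active in ECs, deleted floxed Klf4, the gene of the transcription factor KLF4, after tamoxifen. The 4 groups were young WT Cre (Cre driver with intact Klf4, n = 2 libraries), young EC-K4KO (Klf4 deleted in ECs, n = 3), old WT Cre (n = 2) and old EC-K4KO (n = 2). The WT Cre controls thus carried the Cre driver and received tamoxifen as well, and the labels name ages only as young or old. Neither the number of mice behind a library nor the hour of day at which brains were taken is given in the sources used here, and all p-values measure the spread between these libraries.

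The mammalian clock is a feedback loop of transcription. ARNTL (also called BMAL1) and CLOCK bind E-box sequences as a pair and switch on the Per and Cry genes, whose proteins return to the nucleus and repress that pair. A second arm runs through NR1D1 and NR1D2 (REV-ERB alpha and beta), repressors that bind ROR elements (ROREs) in the Arntl promoter, while DBP and TEF are PAR bZIP factors that act at D-boxes of output genes. Most of these genes are transcribed rhythmically over the day in peripheral tissues, vessels included.

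The lists differed widely in length. They held 6157 and 9598 peaks in young WT Cre, 23848 to 27992 in young EC-K4KO, 32555 and 43893 in old WT Cre, and 39079 and 45026 in old EC-K4KO. Read counts were not analysed here, so depth is unknown, and values below are ranks within a library. Every young library carries the library name prefix A1 and every old library the prefix A2, so age and the library series cannot be told apart. Promoter peaks matched the labelled cell type, with 7 to 12 of 15 endothelial marker genes per library, 5 of them in all 9 libraries and Abcb1a alone in none. None of 7 microglial and none of 6 neutrophil markers had a promoter peak in any library, against 0 to 3 of 7 pericyte and mural, 0 to 2 of 7 astrocyte, 0 to 1 of 7 oligodendrocyte and 0 to 2 of 7 neuronal markers. The pericyte and mural markers were seen only in old libraries (0 to 1 in old WT Cre and 1 to 3 in old EC-K4KO), and their part in the results on age was not tested. The deleted gene Klf4 kept a promoter peak in all 9 libraries, which does not test the labels because peaks at its start site do not show whether its exons were removed.

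Sequences of the start sites came from RefSeq (GRCm38.p6, the build that the files name mm10), as 300-base windows from 250 bases before to 50 after each start. Of the members, 9 matched with 13 windows, all but Per2. The motifs searched on both strands were the E-box CACGTG, the E-box variant CACGTT, the D-box as TTATGTAA, TTACGTAA or TTACATAA, the cAMP response element TGACGTCA and the RORE. In the windows shown here no 2 matches overlapped. The windows of 6 members that hold a motif are shown, in the gene's own direction and with motif letters in capitals. Each window lies inside the span covered by the peaks of all libraries at that promoter, but not inside every library's peak. In young WT Cre the Arntl peaks ended before the RORE, and the Tef upstream promoter had no peak.
Arntl promoter, chr7:113207261-113207560, plus strand: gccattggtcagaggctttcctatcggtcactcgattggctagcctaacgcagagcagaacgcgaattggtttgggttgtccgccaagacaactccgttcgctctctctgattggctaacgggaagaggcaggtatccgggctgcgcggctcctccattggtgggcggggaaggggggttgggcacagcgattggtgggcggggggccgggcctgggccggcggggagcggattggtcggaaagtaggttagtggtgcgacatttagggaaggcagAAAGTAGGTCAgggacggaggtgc
Cry1 promoter, chr10:85185005-85185304, minus strand: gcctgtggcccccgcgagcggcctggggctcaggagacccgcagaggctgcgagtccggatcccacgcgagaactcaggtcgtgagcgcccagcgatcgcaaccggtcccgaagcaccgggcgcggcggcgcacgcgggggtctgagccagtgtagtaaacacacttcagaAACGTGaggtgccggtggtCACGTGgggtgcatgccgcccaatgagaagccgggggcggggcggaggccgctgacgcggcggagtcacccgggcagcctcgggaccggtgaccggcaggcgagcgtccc
Cry2 promoter, chr2:92434020-92434319, minus strand: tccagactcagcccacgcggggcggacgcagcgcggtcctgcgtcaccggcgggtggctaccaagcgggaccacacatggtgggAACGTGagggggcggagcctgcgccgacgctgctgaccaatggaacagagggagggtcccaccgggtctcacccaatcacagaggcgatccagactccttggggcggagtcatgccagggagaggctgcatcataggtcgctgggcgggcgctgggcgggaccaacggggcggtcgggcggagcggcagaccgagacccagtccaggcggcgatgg
Per3 promoter, chr4:151044616-151044915, minus strand: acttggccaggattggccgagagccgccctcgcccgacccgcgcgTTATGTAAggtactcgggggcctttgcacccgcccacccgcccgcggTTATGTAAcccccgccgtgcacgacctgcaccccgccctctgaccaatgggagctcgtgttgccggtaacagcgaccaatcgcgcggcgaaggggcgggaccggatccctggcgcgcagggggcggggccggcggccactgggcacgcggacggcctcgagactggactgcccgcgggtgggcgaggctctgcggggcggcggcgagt
Nr1d1 promoter, chr11:98775328-98775627, minus strand: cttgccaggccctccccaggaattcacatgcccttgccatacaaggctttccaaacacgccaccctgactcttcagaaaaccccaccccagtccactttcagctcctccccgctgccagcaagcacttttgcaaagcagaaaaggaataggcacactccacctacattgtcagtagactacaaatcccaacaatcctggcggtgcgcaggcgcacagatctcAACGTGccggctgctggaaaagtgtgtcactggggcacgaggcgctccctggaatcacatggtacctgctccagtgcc
Tef upstream promoter, chr15:81802423-81802722, plus strand: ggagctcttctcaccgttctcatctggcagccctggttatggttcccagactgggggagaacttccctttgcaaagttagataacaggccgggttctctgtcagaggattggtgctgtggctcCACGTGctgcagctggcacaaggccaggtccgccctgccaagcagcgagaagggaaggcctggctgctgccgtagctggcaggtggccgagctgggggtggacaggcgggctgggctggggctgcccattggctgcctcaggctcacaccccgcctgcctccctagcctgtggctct
Within the start-site windows, the E-box CACGTG stood in 3 of 13 member windows (1 of Cry1 and both of Tef) and in 7.15% of all 32851 windows. The variant CACGTT stood in 3 of 13 (Cry1, Cry2 and Nr1d1) against 4.68% of all. The D-box was present in the Per3 window alone, with 2 copies, against 1.06% of all windows, and the RORE in 1 of 2 Arntl windows against 0.384%. No member window held the cAMP response element, which stood in 1.79% of all. These matches describe letters, not binding. Member windows were richer in CpG, with a median of 22 CpG dinucleotides (range 9 to 46) against 7 over all windows.

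Peaks of all libraries that shared at least 1 bp were merged into 92495 regions, of which 41 belonged to the members, and a 300-base window at the centre of each was read from GRCm38. Of the 10 member regions at promoters, 4 held the E-box CACGTG, against 10.2% of all 9377 such regions, and 4 the variant CACGTT, against 5.66%. The D-box stood in 1 of them, that of Per2, which also held CACGTT, against 0.523% of all. Of the 31 member regions outside promoters, 4 held the E-box CACGTG, against 4.56% of all 83118 such regions, and 2 held the RORE, against 0.543%. The 3 windows below are shown on the plus strand because the results turn on them, namely the intron 1 and upstream regions of Nr1d1 and the Dbp promoter region, whose RORE lies upstream of the start-site window.
Nr1d1 intron 1, chr11:98773824-98774123, plus strand: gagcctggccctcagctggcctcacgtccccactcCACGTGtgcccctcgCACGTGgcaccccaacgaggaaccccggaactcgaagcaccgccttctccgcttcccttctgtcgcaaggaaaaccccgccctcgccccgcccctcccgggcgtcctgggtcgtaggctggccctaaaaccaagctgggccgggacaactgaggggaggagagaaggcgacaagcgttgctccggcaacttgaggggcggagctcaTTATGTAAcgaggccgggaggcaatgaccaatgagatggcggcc
Nr1d1 upstream region, chr11:98783345-98783644, plus strand: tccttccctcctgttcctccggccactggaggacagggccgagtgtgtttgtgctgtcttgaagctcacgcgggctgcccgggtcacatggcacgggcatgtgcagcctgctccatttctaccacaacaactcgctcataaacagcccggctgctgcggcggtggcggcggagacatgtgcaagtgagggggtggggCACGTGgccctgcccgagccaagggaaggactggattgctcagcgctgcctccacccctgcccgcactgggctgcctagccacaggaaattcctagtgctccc
Dbp promoter region, chr7:45704840-45705139, plus strand: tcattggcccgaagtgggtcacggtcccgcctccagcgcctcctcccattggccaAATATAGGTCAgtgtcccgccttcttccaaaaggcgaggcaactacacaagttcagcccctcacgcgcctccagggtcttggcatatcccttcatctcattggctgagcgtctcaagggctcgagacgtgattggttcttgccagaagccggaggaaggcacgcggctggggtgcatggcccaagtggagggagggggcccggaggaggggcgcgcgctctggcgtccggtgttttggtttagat
The Nr1d1 intron 1 window held 2 E-boxes CACGTG and 1 D-box within the peak, and the upstream window held 1 E-box.

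Promoter peaks of the clock genes were found in nearly every library, including the shortest lists. Of the 10 members, 8 had a peak of the class promoter-TSS in all 9 libraries, compared with 2279 of 11168 genes (20.4%) that had one in at least 1 library. Clock lacked it in young WT Cre 1. Nr1d2 had none by class, because its peak of 1125 to 1348 bp was centered 233 to 290 bp inside the gene and was therefore annotated as exon 1, but that peak was called in all 9 libraries. Strength was compared as the promoter percentile, which is the position of a gene's strongest promoter peak by -log10 p among the 2279 genes with such a peak in every library (100 is the strongest), so that list length does not enter.

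**Figure D1:**
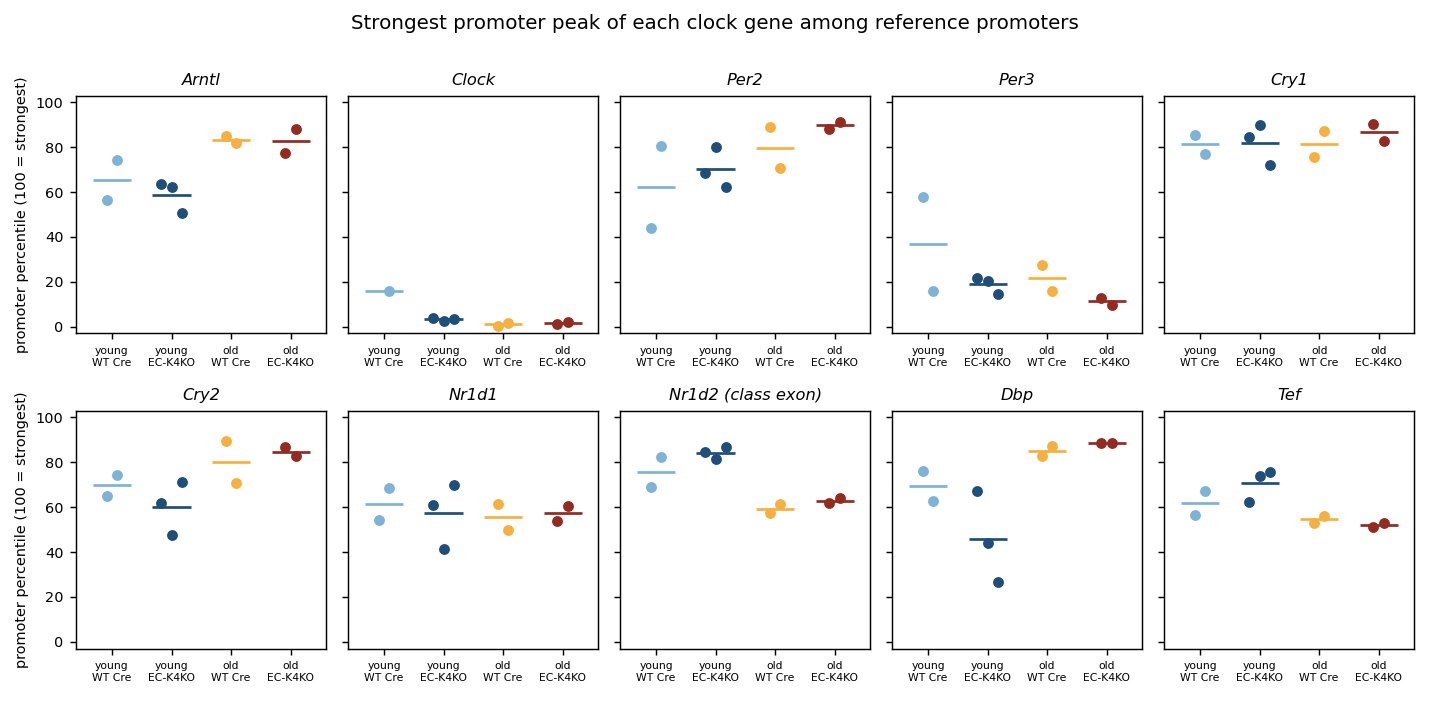
Promoter percentile of the 10 clock genes in each library (points, 1 per library) with the group mean (line); the y axis runs from the weakest (0) to the strongest (100) of the 2279 reference promoters. For Nr1d2 the exon 1 peak at its start site was placed on the same scale, and young WT Cre 1 has no Clock peak. Dbp and Arntl sit higher in all 4 old libraries than in any young library, and Nr1d2 and Tef lower. Clock sits lower in all 4 old libraries than in the 4 young libraries with a peak. Over the 2279 genes, 9.26% had all old libraries above all young ones and 10.4% had all below.

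Among the activators, Arntl (chr7:113206906-113207870) had promoter percentiles of 56.5 and 74.2 in young WT Cre, 63.6, 62.5 and 50.6 in young EC-K4KO, 84.9 and 81.9 in old WT Cre, and 77.5 and 88.0 in old EC-K4KO. All 4 old libraries lay above all 5 young ones. Clock (chr5:76303821-76305287), the partner of ARNTL, was at the other end of the scale, with 15.8 in young WT Cre 2, 2.33 to 3.95 in young EC-K4KO, 0.132 and 1.84 in old WT Cre and 1.10 and 2.02 in old EC-K4KO. All 4 old libraries lay below the 4 young ones that had the peak. The Clock peak was nevertheless wide (542 bp in young WT Cre 2 and 1188 to 1465 bp in the other 7 libraries that had it). Clock thus had a broad peak of low rank by -log10 p, while Arntl had a narrower peak of higher rank. Fold enrichment was 3.74 to 6.73 at Clock and 5.38 to 12.2 at Arntl.

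The repressors divided in the same manner into strong and weak promoters. Cry1 (chr10:85184502-85185601) encodes a cryptochrome and had a strong promoter in every library, with 85.5 and 76.9 in young WT Cre, 84.4, 89.7 and 72.1 in young EC-K4KO, 75.5 and 87.3 in old WT Cre and 90.3 and 83.0 in old EC-K4KO. Its paralog Cry2 (chr2:92433805-92434555) had 65.1 and 74.5, then 62.0, 47.7 and 71.0, then 89.3 and 70.8, and then 86.7 and 82.7 in the same order of groups. Young and old libraries overlapped for both cryptochromes. Per2 (chr1:91459071-91459843), a period gene of the core loop, had 43.8 and 80.4 in young WT Cre, 68.6, 80.1 and 62.3 in young EC-K4KO, 88.9 and 70.7 in old WT Cre and 88.0 and 91.4 in old EC-K4KO. Its young WT Cre libraries spanned most of the range of the other groups. Per3 (chr4:151044136-151045158), a period gene that the core loop can do without, had 58.0 and 15.7, then 21.6, 20.2 and 14.7, then 27.4 and 15.7, and then 12.9 and 9.72, and was low in every library except young WT Cre 1.

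Of the REV-ERB genes, Nr1d1 (chr11:98775100-98776052) had promoter percentiles of 54.2 and 68.6 in young WT Cre, 61.1, 41.6 and 70.1 in young EC-K4KO, 61.2 and 50.04 in old WT Cre and 54.0 and 60.4 in old EC-K4KO, which is the middle of the scale at both ages by -log10 p. Ranked by fold enrichment, the Nr1d1 promoter was low, with mean percentiles over both genotypes of 4.43 in old and 16.1 in young libraries. Nr1d2 (chr14:18238175-18239527), placed on that scale by its exon 1 peak, had 68.9 and 82.3, then 84.6, 81.3 and 86.6, then 57.3 and 61.3, and then 61.8 and 64.1. Every old library lay below every young one.

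The PAR bZIP outputs were split between ages. Dbp (chr7:45704488-45705438) had 76.0 and 62.6 in young WT Cre, 67.4, 43.9 and 26.6 in young EC-K4KO, 83.0 and 87.3 in old WT Cre and 88.8 and 88.7 in old EC-K4KO. Its young EC-K4KO libraries spread most (46.0 ± 20.5, SD, n = 3), and its old EC-K4KO libraries differed by less than a point. For Tef, the strongest promoter peak was in all 9 libraries the one centered 8.2 to 8.3 kb inside the gene (chr15:81810203-81811796), with 56.4 and 67.4, then 62.4, 74.1 and 75.7, then 53.2 and 56.1, and then 51.4 and 52.9, so all 4 old libraries lay below all 5 young ones. Over the 2279 genes, 9.26% had all old libraries above all young ones, as did 2 of the 8 members with values (Dbp and Arntl), and 10.4% had all old libraries below, as did 1 of the 8 (Tef).

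Aging was examined first, as the old minus young difference averaged over both genotypes, with limma on normal scores of the percentiles (adjusted p under 0.05 over 2279 genes). The promoters of Dbp and Arntl rose in rank with age. Dbp rose by 0.93 normal score units (SE 0.21, adjusted p = 0.0155 by limma) and Arntl by 0.65 (SE 0.17, adjusted p = 0.0269 by limma). No member fell. Thus 2 of 8 members passed, against 19.1% of all genes tested (192 up and 243 down), a share close to that background, and the median estimate was 0.33 over the 8 members and 0.0347 over all genes. In percentile points the exact permutation test within genotype (two-sided, 60 arrangements, smallest possible p 0.0167) gave differences of 29.3 for Dbp (p = 0.0333) and 20.95 for Arntl (p = 0.0167). Within WT Cre alone neither passed (0.53 for Dbp, adjusted p = 0.305, and 0.57 for Arntl, adjusted p = 0.187 by limma), and within EC-K4KO Dbp did (1.32, adjusted p = 0.0316 by limma) and Arntl did not (0.74, adjusted p = 0.101 by limma). The age effects of the 2 genotypes did not differ past the threshold (interaction adjusted p = 0.611 for Dbp and 0.913 for Arntl by limma). Both calls rest on few libraries, since without any 1 of the 4 old libraries the limma adjusted p was 0.0508 to 0.0677 for Dbp and 0.0579 to 0.139 for Arntl. Both calls were also lost without the filter on absent peaks (adjusted p = 0.0514 for Dbp and 0.0703 for Arntl by limma), and that of Arntl with a replicate block (adjusted p = 0.0532 by limma). With peaks ranked by fold enrichment in place of -log10 p, both remained higher in old libraries without passing (adjusted p = 0.0967 for Dbp and 0.233 for Arntl by limma).

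The other members did not pass by age. Cry2 had an estimate of 0.57 (SE 0.19, adjusted p = 0.0645 by limma) and Per2 of 0.63 (SE 0.24, adjusted p = 0.0848 by limma), and without young WT Cre 2 they were 0.62 (adjusted p = 0.0393 by limma) and 0.86 (adjusted p = 0.00845 by limma). Per3 was at -0.36 (SE 0.23, adjusted p = 0.286 by limma) and, without that same library, at -0.64 (adjusted p = 0.0124 by limma). Leaving out young WT Cre 1 moved both period genes the other way, to 0.35 for Per2 (adjusted p = 0.197 by limma) and -0.085 for Per3 (adjusted p = 0.715 by limma). Cry2 also passed without old WT Cre 2 (0.74, adjusted p = 0.0432 by limma). Cry1 was at 0.09 (SE 0.19) and Nr1d1 at -0.08 (SE 0.19), both within 1 SE of no change. Tef was at -0.34 (SE 0.15, adjusted p = 0.131 by limma, with an exact permutation p of 0.05 for 12.9 points lower). By fold enrichment its sign turned (0.43, adjusted p = 0.172 by limma). The fold ranking took the Tef promoter peak of highest fold. That was the upstream promoter in every old library and in young EC-K4KO 2, and the promoter inside the gene in the other young libraries. The fold estimate for Tef thus compares different promoters. Nr1d2 entered only when peaks within 1000 bp of a start site were used whatever their class, and it then fell by 0.53 (SE 0.15, adjusted p = 0.0382 by limma over 3265 genes; exact permutation p = 0.0167). Under that rule 3 of 8 members (Dbp, Arntl and Nr1d2) and 579 of the 3265 genes passed. These 8 members included Nr1d2 but not Tef. Clock, absent from young WT Cre 1, fell by 0.86 when that library was left out (adjusted p = 0.013 by limma over 3143 genes) and had an estimate of -0.24 when absent peaks were placed last (adjusted p = 0.465 by limma over 11168 genes).

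**Figure D2:**
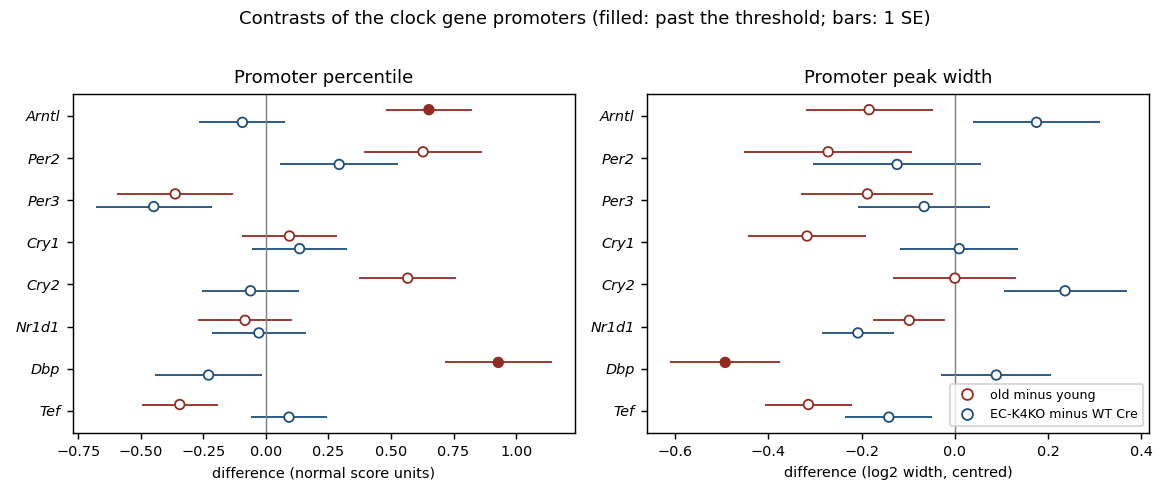
Estimates with 1 SE for the 8 members that had a promoter peak in all 9 libraries, for age (old minus young) and genotype (EC-K4KO minus WT Cre). The left axis gives normal score units of the promoter percentile and the right axis log2 width after centering on each library; filled points passed the limma threshold, which were Dbp and Arntl for percentile by age and Dbp for width by age.

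With all libraries, no clock promoter passed the threshold for Klf4 deletion. The EC-K4KO minus WT Cre difference within age ranged from -0.45 for Per3 (SE 0.23, adjusted p = 0.445 by limma) to 0.29 for Per2 (SE 0.24, adjusted p = 0.642 by limma). Per3 turned on single young WT Cre libraries, with -0.70 without replicate 2 (adjusted p = 0.0395 by limma, past the threshold) and -0.11 without replicate 1 (adjusted p = 0.733 by limma). With all libraries none of the 8 members passed by limma (none had an unadjusted p under 0.05), against 0.132% of all genes (3 of 2279, with 294 at an unadjusted p under 0.05). The smallest exact permutation p among the members was 0.1, for Per3, with a difference of -14.1 points (EC-K4KO minus WT Cre). With peaks ranked by fold enrichment, Per3 was lower in EC-K4KO (-16.0 points, exact permutation p = 0.0333). Tef was too (-21.9 points, exact permutation p = 0.0167, the smallest possible). Its peak of highest fold was not the same promoter in every library. It was the upstream one in every old library and in young EC-K4KO 2, and the one inside the gene in the other young libraries. No member passed by limma in that ranking either. The difference between the genotype effects at the 2 ages was largest for Dbp among the members, at 0.79 (SE 0.43, adjusted p = 0.611 by limma). Dbp was 0.62 lower in young EC-K4KO than in young WT Cre (SE 0.29) and 0.16 higher in old EC-K4KO than in old WT Cre (SE 0.32). By limma 0 genes passed for this interaction (0.0%, 220 at an unadjusted p under 0.05), and no member did, none being under 0.05 unadjusted.

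Promoter peaks were narrowest in the 2 shortest lists, with library medians over all promoter-TSS peaks of 366 and 390 bp in young WT Cre and 499 to 640 bp in the other 7 libraries, so widths were centered on each library. The Dbp peak measured 325 and 439 bp in young WT Cre, 577, 732 and 951 bp in young EC-K4KO, 545 and 491 bp in old WT Cre and 504 and 488 bp in old EC-K4KO, and thus was widest in young EC-K4KO where its percentile was lowest. Relative to the library it fell by 0.49 on the log2 scale with age (SE 0.12, adjusted p = 0.0495 by limma), the only 1 of 8 members, against 6.54% of all genes. Without centering, the Dbp estimate was -0.06 (adjusted p = 0.739 by limma), and the call was also lost at the stricter -log10 q of 2 (adjusted p = 0.0543 by limma) and with a replicate block (adjusted p = 0.102 by limma). It ended under 6 of the 9 omissions of a single library, the exceptions being both young WT Cre libraries and young EC-K4KO 1.

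Other widths gave no call. Tef, the widest member by promoter class (1191 to 1567 bp), had -0.31 by age (SE 0.09, adjusted p = 0.073 by limma) and Cry1 had -0.32 (SE 0.13, adjusted p = 0.138 by limma). Without centering, both of these turned positive (0.12 each). By genotype none of the 8 members passed, against 0.219% of all genes (5 of 2279), and the lowest unadjusted p belonged to Nr1d1 (-0.21, SE 0.08, adjusted p = 0.190 by limma), whose peak measured 601 and 700 bp in young WT Cre, 783 to 825 bp in young EC-K4KO, 868 and 948 bp in old WT Cre and 902 and 921 bp in old EC-K4KO.

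**Figure D3:**
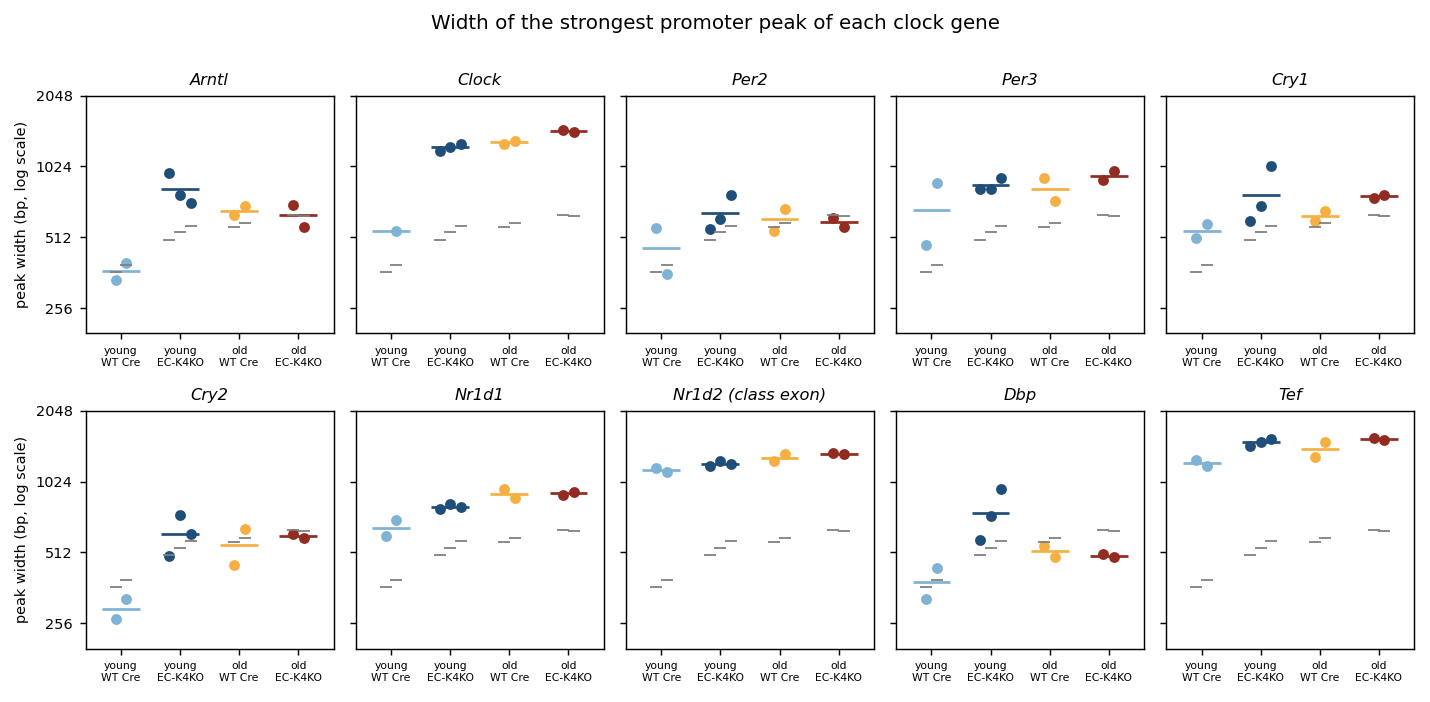
Width in bp (log axis) of the strongest promoter peak of each clock gene per library (points) with the group mean (line); grey ticks give each library's median width over all its promoter-TSS peaks. The medians are 366 and 390 bp in young WT Cre and 499 to 640 bp elsewhere, whereas Dbp measured 577 to 951 bp in young EC-K4KO and 488 to 545 bp in the old groups.

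Nr1d1 and Tef each had more than 1 strong element. In Nr1d1, the peak in intron 1 centered 1.4 kb from the start (chr11:98773716-98774243), whose window holds 2 E-boxes and a D-box, was narrow (424 to 522 bp) and was stronger than the promoter in every library. Against the reference promoters it stood at 86.9 and 82.6 in young WT Cre, 77.5, 94.5 and 92.5 in young EC-K4KO, 73.9 and 67.5 in old WT Cre and 72.7 and 74.3 in old EC-K4KO. Every old library was below every young one, with an old minus young difference of -14.3 points (two-sided exact permutation test within genotype, p = 0.0333), and the genotype difference was 3.09 points (exact permutation p = 0.417). The same test on the exon 1 peak of Nr1d2 gave an old minus young difference of -18.7 points (exact permutation p = 0.0167) and 6.11 points higher in EC-K4KO (exact permutation p = 0.05). Both tests were added after the values were seen, and they were run on these regions alone. Over the 2279 reference promoters, 10.4% had all old libraries below all young ones. No such share was computed for regions of other classes.

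The Nr1d1 region 8.1 kb upstream (chr11:98783260-98783710) was absent from both young WT Cre lists and present in the other 7, at 1.58, 8.07 and 11.6 in young EC-K4KO, 21.7 and 4.70 in old WT Cre and 17.5 and 12.9 in old EC-K4KO. It stood in the lower part of the scale in all 7, and old WT Cre overlapped both EC-K4KO groups. Old EC-K4KO lay narrowly above young EC-K4KO (lowest 12.9 against highest 11.6). The share of all regions with such a split was not computed.

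In Tef, 2 promoters behaved differently. The upstream one (chr15:81802392-81802945, 369 to 554 bp), at the annotated start and with an E-box in its window, was absent from both young WT Cre lists and had 28.3, 20.01 and 18.6 in young EC-K4KO, 50.8 and 52.7 in old WT Cre and 43.4 and 35.6 in old EC-K4KO. Old libraries were above young EC-K4KO libraries without overlap, but the share of all promoters with such a split was not computed. The second promoter (1191 to 1567 bp) was present throughout and was lower in all 4 old libraries, as given above.

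**Figure D4:**
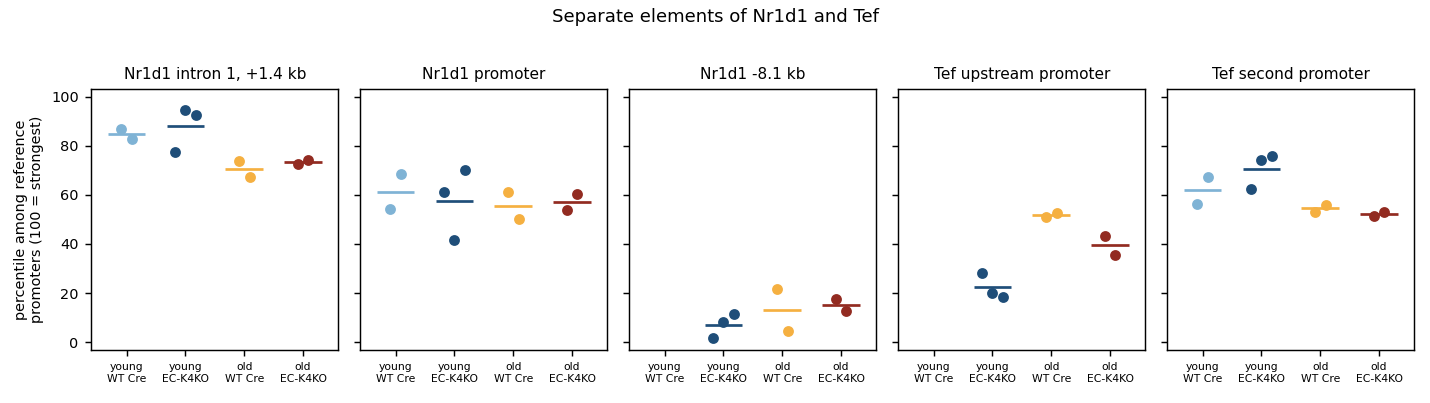
Percentile among the 2279 reference promoters (y axis, 100 is the strongest) of 3 elements of Nr1d1 and 2 promoters of Tef in each library (points) with group means (lines). Groups with no point had no peak: neither the Nr1d1 region 8.1 kb upstream nor the Tef upstream promoter was called in the 2 young WT Cre lists.

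Outside promoters, clock gene peaks were fewest in the 2 shortest lists. Peaks of other classes numbered 2 and 4 in young WT Cre, 7, 10 and 12 in young EC-K4KO, 17 and 15 in old WT Cre and 17 and 19 in old EC-K4KO, whereas promoter-TSS peaks numbered 8 and 9 in young WT Cre and 10 in each other library. When every list was reduced to its 6157 strongest peaks, the length of the shortest, members had 10 to 12 peaks in each library. Per 10000 peaks, the members held 16.2 and 13.5 in young WT Cre and 5.997 to 7.90 elsewhere. Of the 41 merged regions, 10 were present in all 9 libraries (24.4%, against 5.27% of all regions), namely 7 gene promoters, the second Tef promoter, Nr1d1 intron 1 and Nr1d2 exon 1, and 13 were present in only 1 (31.7%, against 57.3% of all regions). Promoter regions were a larger part of the member regions than of all regions. By class, 8 of 10 member promoter regions were in all 9 libraries, against 32.5% of all promoter regions. Of the 31 other member regions 2 were, against 2.2%.

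Regions were counted as gained when at least 2 libraries of a group and no young WT Cre library had a peak. These comparisons share the young WT Cre libraries. Young EC-K4KO gained 5 of 41 (12.2%) against 10.2% of all regions, old WT Cre gained 10 (24.4%) against 17.4%, and old EC-K4KO gained 13 (31.7%) against 26.6%. By class the shares lay on either side of the background. Of the 10 member regions at promoters, 1 was gained in each group, against 27.1%, 32.2% and 37.4% of all promoter regions in the same order of groups. Of the 31 other member regions, 4 (12.9%), 9 (29.0%) and 12 (38.7%) were gained, against 8.28%, 15.7% and 25.3% of all other regions. At the stricter -log10 q of 2, the member share was below the background in each group. Of 30 member regions, young EC-K4KO gained 4 against 18.7% of all regions, old WT Cre 8 against 34.6% and old EC-K4KO 13 against 54.3%. The same 5 regions were gained in all 3 groups: the Tef upstream promoter, the Nr1d1 upstream region, Dbp intron 2 (chr7:45706891-45707892), Arntl intron 2 at 34.7 kb (chr7:113241903-113242860) and Per2 intron 9 (chr1:91435973-91436814). By their mean place in the lists they stood 9.34%, 19.0%, 38.7%, 64.0% and 52.8% from the top, in that order, so the last 2 were among the weaker peaks of their lists. In the lists of equal length 1 region remained gained in old WT Cre and 2 in each of the EC-K4KO groups, of 14 member regions (the share over all 10089 regions was 6.99% for young EC-K4KO, 8.3% for old EC-K4KO and 7.3% for old WT Cre), namely the Tef upstream promoter in all 3 and the Nr1d1 upstream region in both EC-K4KO groups.

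**Figure D5:**
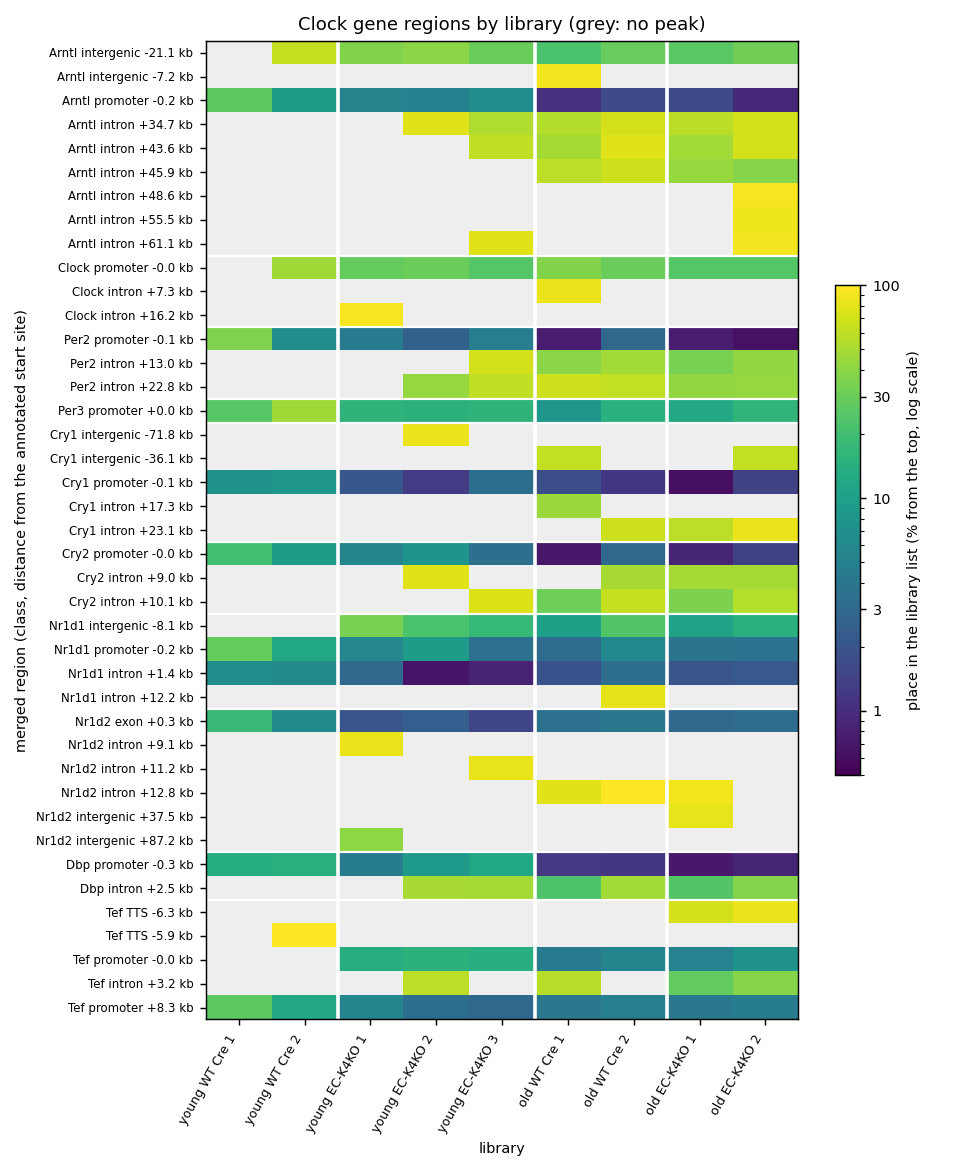
The 41 merged regions of the clock genes (y axis, by gene with annotation class and distance from the annotated start site in kb) in the 9 libraries (x axis). Color gives the place of the peak in that library's list as a percentage from the top on a log scale (dark is strong), and grey means no peak; 10 regions run through all 9 libraries, 2 are missing from young WT Cre alone, and 6 are missing from it and from part of young EC-K4KO.

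Several intronic regions were found mostly in old libraries. Arntl had regions in intron 2 at 43.6 kb (5 libraries, with a RORE in the window) and 45.9 kb (4 libraries, all of them old). Per2 had 1 in intron 4 at 13.0 kb and Cry2 1 in intron 3 at 10.1 kb with 2 E-boxes in its window, each in young EC-K4KO 3 and all 4 old libraries. None of these intronic regions remained in any library when lists were cut to equal length. The Arntl region 21.1 kb upstream was present in 8 libraries, all but young WT Cre 1. In Nr1d2, 4 of 6 regions were found in a single library, and Per3 had its promoter alone.

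Of 16 other clock genes, 3 (Per1, Bhlhe40 and Ciart) had a promoter-TSS peak in all 9 libraries, compared with 8 of the 10 members, and 3 to 11 of the 16 had one in a given library. Of the 3 with a peak throughout, only Bhlhe40 passed by age. Its product (DEC1) represses transcription at E-boxes, and its promoter fell by 1.07 (SE 0.18, adjusted p = 0.00476 by limma), from percentiles of 39.2 to 76.7 in the 5 young libraries to 16.9 to 39.9 in the 4 old ones. None of the 3 passed by genotype, for the interaction or for width.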

How the data were processed

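The authors aligned trimmed reads to mm10 (GRCm38) with Bowtie2, discarded duplicate and low-quality alignments, and ran MACS2 in broad mode. Each library had its own peak list, with no pooling. Each deposited list gives position, a score, a fold enrichment ratio and the -log10 p and -log10 q of each peak. As deposited, the score is -log10 q multiplied by 10 and cut to an integer. The authors' annotation adds a class, a gene name and the distance to the nearest start site. All 253457 peaks lay within the chromosomes of GRCm38. Read counts were not analysed here, so the count test that the study used (DESeq2 within DiffBind) was not rerun, and no interval for depth can be given.

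For each gene, the strongest promoter-TSS peak by -log10 p was ranked within each library among the 2279 genes that had one in all 9 libraries, and ranks were turned into normal scores. Widths were log2 transformed and centered on the library median over the same genes. Both were fitted with limma 3.58.1 (R 4.3.3) on 4 group means with Benjamini-Hochberg adjustment over all genes, and the procedure was tested on simulated data. Exact permutation tests exchanged labels within genotype or within age. Python 3.11.15 with pandas 2.3.3 and numpy 2.4.6 was used otherwise. Alternatives were ranking by fold, peaks within 1000 bp of a start site, percent ranks, no filter, a -log10 q of at least 2, uncentered widths, the widest peak, a replicate block, lists of equal length, merging within 200 bp and leaving out each library.

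All 10 members were named, other clock genes only where they passed a test, and regions when at a promoter, in all 9 libraries or gained. The members and lists were chosen with earlier results of these data known.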

Additional observations from a re-analysis of the deposited data

How the results depend on the processing

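No read counts were used, and groups of 2 or 3 libraries limit every test. For rank by age, 435 genes passed, against 672 by fold, 332 with a replicate block and 130 to 761 when 1 library was left out. Of the 8 members 2 passed, against 0 by fold, 0 without the filter on absent peaks, 1 with the replicate block (Dbp, with Arntl at an adjusted p of 0.0532 by limma) and 0 to 5 with 1 library left out. For rank by genotype, 3 genes passed, against 0 by fold, 0 with peaks within 1000 bp, 1 with percent ranks, 214 without the filter, 1 at the stricter q, 0 with the replicate block and 0 to 92 with 1 library left out, and 0 to 1 members passed (Per3, without young WT Cre 2). For the interaction, 151 genes passed without the filter and 0 to 23 with 1 library left out. For width by genotype, 5 genes passed, against 810 without centering (2 members), 1 with the replicate block and 1 to 358 with 1 library left out. For width by age, 149 passed, against 1489 without centering (2 members), 23 with the replicate block (0 members) and 3 to 600 with 1 library left out (0 to 4 members), and 0 members passed at the stricter q. The count of 92 for genotype and those of 358 and 600 for width all arose without young WT Cre 2, and that of 761 without young WT Cre 1, while leaving out an old library gave 130 to 255 for rank by age. In fits without a library, a group left with 1 was assumed to vary like the others.

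The sign turned for Tef by age when peaks were ranked by fold (0.43, or 16.2 percentile points, exact permutation p = 0.0333) and as a place in the whole list (7.20 points), for the genotype difference of Per3 as a place in the whole list (8.98 points), and for 3 widths without centering, namely Tef (0.12) and Cry1 (0.12) by age and Nr1d1 by genotype (0.16). Fold ranking used the upstream Tef promoter in every old library and in young EC-K4KO 2, and the second promoter in the other young libraries. Tef results by fold thus mix these promoters. With 1 library left out, the age estimate of Cry1 ranged from -0.017 to 0.21 and that of Nr1d1 from -0.18 to 0.016. By exact permutation test, 2 members were under 0.05 by age, against 1 by fold and 4 as a place in the whole list, and 0 by genotype, against 2 by fold (Per3 and Tef, both lower in EC-K4KO) and 3 in the whole list, where list length enters. The exact test was run on the members alone, so these counts cannot be set against a share over all genes. The causes were not tested.

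In lists of equal length, young EC-K4KO gained 2 member regions (5 in full lists), old WT Cre gained 1 (10) and old EC-K4KO gained 2 (13). With 1 library left out these were 2 to 7, 10 to 15 and 13 to 17, and young EC-K4KO gained 2 without its library 2 or 3. A group left with 1 library needed only that library's peak. Member peaks in lists of equal length were 10, 11 or 12 in every library. Merging within 200 bp and the stricter q left these counts within 1.5 times.

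Whether the replicate numbers pair the libraries was not settled. Deviations from the group means correlated at -0.0315 to 0.105 over 12 pairs with the same number and at -0.105 to 0.0626 over 18 pairs with different numbers. In a group of 2 libraries the deviations are equal and opposite. The values for same and different numbers therefore mirror each other and cannot decide the question.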
